A study of Mus musculus with 9 samples.

Results

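The genes described here build and run the DNA replication machinery. They were listed by name as 47 genes of origin licensing, origin firing, the replication fork, deoxynucleotide supply and chromatin assembly, and 46 of them have a probe set annotated with that gene symbol alone, out of 18193 genes with such a probe set in the whole table. Chaf1a is the exception and is not analysed here. The 46 genes have 102 probe sets, and each gene was read from the probe set with the highest mean signal over the 9 arrays. By role they are 15 licensing, 8 firing, 19 fork, 3 nucleotide and 1 chromatin assembly genes.

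Expression was measured in D3-pOct4 mouse embryonic stem cells, a single line, on Affymetrix mouse whole-genome expression arrays. All cultures grew for 7 days in serum-containing medium. The LIF group had leukemia inhibitory factor, the cytokine used to hold such cells undifferentiated, at 1000 U/ml. The no LIF group received none, and the donor group received no LIF and 2 µM DETA/NO, which releases nitric oxide. Replicates 1, 2 and 3 of each group were passages 31, 33 and 34, 1 array each. How separate the cultures were is not stated, and the p-values reflect only the variation among the arrays, part of which may be technical.

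Replication is prepared in G1, when the origin recognition complex binds DNA and, with Cdc6 and Cdt1, loads the MCM helicase. Geminin, encoded by Gmnn, blocks this loading after S phase has begun. In S phase the kinase Cdc7 with its partner Dbf4, together with Cdc45 and the GINS complex, turns loaded helicases into moving forks. There the polymerases, the sliding clamp PCNA, its loader RFC and the single-strand binder RPA copy the template. Many of these genes are known E2F targets, and mouse embryonic stem cells are known for a short G1 phase and for high levels of replication proteins through the cycle.

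Signals are the deposited linear intensities, scaled so that every array has the same trimmed mean of 100. Differences are on the log2(signal + 3) scale, which understates the change of dim genes. All 46 genes passed the filter on low signals. In bulk RNA, a lower level cannot be told apart from fewer cells in the phase that expresses the gene.

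The cells carried the markers of their label, and some arrays stood apart. Pou5f1 read 958 to 3211, Sox2 1510.4 to 3866 and Nanog 271 to 1340 over the 9 arrays. Of 8 fibroblast markers 4 passed the filter, and their highest signal anywhere was 94.5, for Thy1. Socs3, a target of LIF signalling, went against the labels on 2 arrays: it read 282 on LIF replicate 2, and 3054 on no LIF replicate 2. The closest pair of arrays was no LIF replicate 1 and donor replicate 3, from different groups and passages, with a correlation of 0.977 over all tested probe sets. That pair also had the lowest ratios of 3' to 5' Actb signal, a measure of RNA quality, at 1.52 and 1.62 against 1.81 to 3.15 on the other 7 arrays. The same ratio for Gapdh did not set the pair apart, at 0.823 and 0.856 against 0.812 to 0.955. The part of RNA quality in the profiles of that pair was not tested. The median signal of all probe sets was 20.8 to 23.3 on LIF replicate 1 and donor replicates 1 and 2. These are called the brighter arrays below, and the median was 13.9 to 17.8 on the other 6. The name refers to this median only. Summed over the tested genes, signal was lowest on donor replicate 1 and LIF replicate 1, at 3.58e+06 and 3.64e+06. On the other arrays it was 4.00e+06 to 4.44e+06. The counts over the 46 genes are given with and without the arrays that stood apart.

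Promoter sequences come first, because E2F sites are a known feature of many licensing gene promoters. RefSeq promoters of build GRCm38.p6, each 250 bases before to 50 bases after the annotated start, were found for 38 of the 46 genes. The E2F site was searched on both strands as TTTCCCGC, TTTCGCGC, TTTGCCGC or TTTGGCGC, where matches on opposite strands may overlap. It was present for 14 of 38 genes, or 36.8%, against 2.6% of the 27025 genes in the promoter table. Among licensing genes it was present for 8 of 13, among fork genes for 5 of 16 and among firing genes for 1 of 5. The CCAAT box was present for 60.5% of the 38 genes against 41.1% of all genes, and the CHR motif TTTGAA for 18.4% against 20.2%. The CHR motif was present for 4 of 5 firing genes, Cdc45, Cdc7, Dbf4 and Gins3, and for 1 of 13 licensing genes, Mcm2. A match is a description of these letters and not a measured binding site.

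Shown here are promoters of 4 of the 6 MCM helicase genes, then Orc1, whose promoter has a match near the start, Rfc3 as a fork gene, and Orc6, which has no match and whose profile over the arrays differed from that of most MCM genes. The MCM promoters shown are those with a match: Mcm2 and a second listed Mcm7 promoter have none and are not shown, and Mcm4 is not in the table. Capitals mark the E2F matches. Mcm5 and Mcm6 each have an overlapping pair on opposite strands, whose first bases lie at -153 and -149 and at -110 and -106 from the start, and Mcm6 has another at -47.
Mcm3, chr1:20820263-20820562, minus strand: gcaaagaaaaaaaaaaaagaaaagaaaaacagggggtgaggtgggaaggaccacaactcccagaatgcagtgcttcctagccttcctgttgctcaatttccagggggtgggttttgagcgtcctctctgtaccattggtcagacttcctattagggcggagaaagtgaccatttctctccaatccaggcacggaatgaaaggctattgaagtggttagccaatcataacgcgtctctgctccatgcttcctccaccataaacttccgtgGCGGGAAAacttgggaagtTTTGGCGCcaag
Mcm5, chr8:75109259-75109558, plus strand: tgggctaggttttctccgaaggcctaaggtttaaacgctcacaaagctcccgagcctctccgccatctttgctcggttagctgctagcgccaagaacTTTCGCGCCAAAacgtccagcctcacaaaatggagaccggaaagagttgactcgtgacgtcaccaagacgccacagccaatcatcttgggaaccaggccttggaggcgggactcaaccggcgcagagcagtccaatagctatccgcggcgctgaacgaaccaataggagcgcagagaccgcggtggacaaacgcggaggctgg
Mcm6, chr1:128359656-128359955, minus strand: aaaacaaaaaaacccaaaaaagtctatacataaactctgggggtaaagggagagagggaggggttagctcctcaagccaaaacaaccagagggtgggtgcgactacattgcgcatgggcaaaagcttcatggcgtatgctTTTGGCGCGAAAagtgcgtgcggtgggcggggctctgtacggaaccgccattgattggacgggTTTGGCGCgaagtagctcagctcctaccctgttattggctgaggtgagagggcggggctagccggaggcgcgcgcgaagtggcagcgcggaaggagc
Mcm7, chr5:138171834-138172133, minus strand: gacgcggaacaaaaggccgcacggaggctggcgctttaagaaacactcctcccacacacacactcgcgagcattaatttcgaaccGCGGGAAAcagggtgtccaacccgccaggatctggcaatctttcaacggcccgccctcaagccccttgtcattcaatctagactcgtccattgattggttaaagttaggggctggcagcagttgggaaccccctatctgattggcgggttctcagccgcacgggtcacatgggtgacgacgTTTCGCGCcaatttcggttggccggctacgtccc
Orc1, chr4:108579204-108579503, plus strand: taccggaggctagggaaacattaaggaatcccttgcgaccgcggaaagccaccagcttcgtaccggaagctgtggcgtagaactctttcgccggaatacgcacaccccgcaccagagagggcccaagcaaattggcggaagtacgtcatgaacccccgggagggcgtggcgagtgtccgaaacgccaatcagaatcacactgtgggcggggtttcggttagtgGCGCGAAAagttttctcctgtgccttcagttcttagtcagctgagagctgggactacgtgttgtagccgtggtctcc
Rfc3, chr5:151651159-151651458, minus strand: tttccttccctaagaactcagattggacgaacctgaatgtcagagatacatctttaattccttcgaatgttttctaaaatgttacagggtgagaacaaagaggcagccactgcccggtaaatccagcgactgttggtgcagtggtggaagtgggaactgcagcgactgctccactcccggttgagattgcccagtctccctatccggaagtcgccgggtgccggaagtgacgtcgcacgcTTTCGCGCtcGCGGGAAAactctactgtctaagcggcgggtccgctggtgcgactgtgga
Orc6, chr8:85299382-85299681, plus strand: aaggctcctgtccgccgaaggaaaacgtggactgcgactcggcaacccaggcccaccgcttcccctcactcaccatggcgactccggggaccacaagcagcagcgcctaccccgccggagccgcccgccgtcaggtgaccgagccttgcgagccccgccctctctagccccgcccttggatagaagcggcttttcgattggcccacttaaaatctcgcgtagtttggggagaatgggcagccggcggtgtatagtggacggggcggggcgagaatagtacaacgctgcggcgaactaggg

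No replication gene passed the test in any of the 3 comparisons. In each, the gap between the licensing and fork median differences was below the SD between replicates of licensing minus fork median levels, 0.32. Licensing, firing and fork genes tended to lie higher without LIF than with it, and lower with the donor than without it, by medians of 0.27 to 0.35 and of -0.25 to -0.35 on the log2 scale. The array that was lowest was donor replicate 1 for 19 of the 46 genes and LIF replicate 1 for 13. Both are brighter arrays by the median of all probe sets, and both had the lowest summed signal over the tested genes. The array that was highest was no LIF replicate 2 for 18. Over all 13358 tested genes the lowest signal fell on those first 2 arrays for 17.4% and 19% of genes, and the highest on no LIF replicate 2 for 10.8%.

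**Figure D1:**
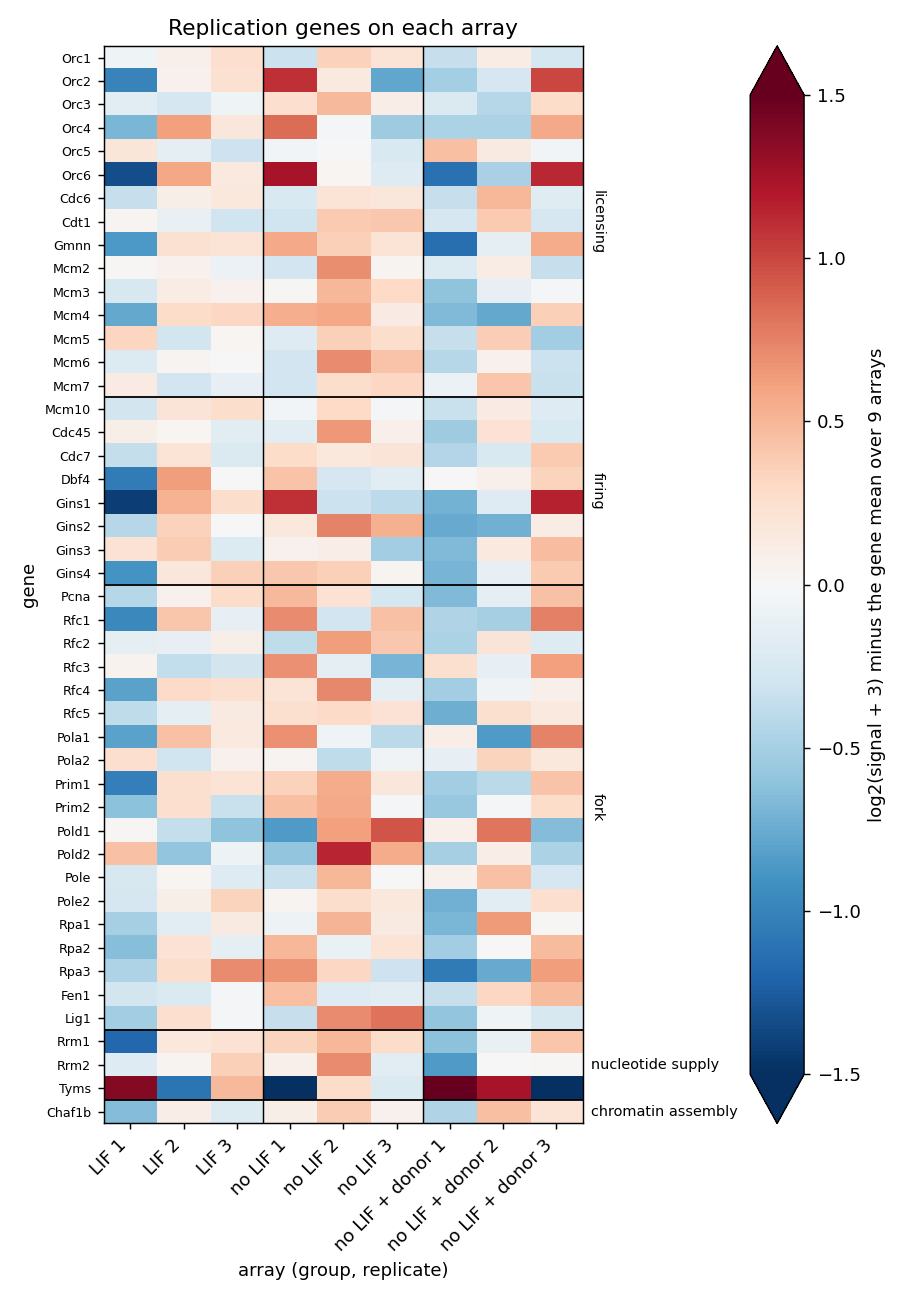
Colour gives log2(signal + 3) of each of 46 genes (rows, by role) on each of 9 arrays (columns, by group and replicate) minus that gene's mean over the arrays; the scale ends at 1.5 either way. LIF replicate 1 and donor replicate 1 are blue for most genes, no LIF replicate 2 is red for most, and Tyms runs opposite to Orc6.

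The MCM genes encode the 6 subunits of the replicative helicase, and most of them shared a profile over the arrays. Mcm7 read 5607, 4232 and 4738 with LIF, 4236, 6189 and 6407 without it, and 4864, 6897 and 4098 with the donor, for replicates 1, 2 and 3 in turn. Mcm5 read 4846, 3220.3 and 3965 with LIF, 3408, 4979 and 4684 without it, and 3054, 5027 and 2705 with the donor. In both genes, no LIF replicate 1 and donor replicate 3 sat among the 4 lowest arrays, and the groups overlapped. Mcm2 read 1572, 1626 and 1463 with LIF, 1279, 2524 and 1607 without it, and 1354, 1684 and 1226 with the donor. Its no LIF replicate 2 was far above the other 8 arrays. Mcm6 ran from 1687 to 3719, with its highest value on the same array. Mcm3 read 1714, 2176 and 2118 with LIF, 2054, 2861 and 2485 without it, and 1331, 1858 and 1978 with the donor. Every Mcm3 value with the donor was below every value without LIF. Mcm4 read 837, 1735 and 1773 with LIF, 2084, 2127 and 1556 without it, and 902, 836 and 1835 with the donor. For both Mcm3 and Mcm4 the 3 brighter arrays were the 3 lowest. Mcm4 departed from the others in that no LIF replicate 1 was among its highest.

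The 6 subunits of the origin recognition complex did not move as a set. Orc6 had the widest range of the licensing genes, 6.05 from the lowest to the highest array. It read 108, 412 and 306 with LIF, 652, 281 and 242 without it, and 126, 197 and 609 with the donor. Orc2 read 123, 260.2 and 292 with LIF, 535, 275 and 143 without it, and 173, 208 and 501 with the donor. For both, the closest pair of arrays held the highest signals, and each of these arrays was far from the rest of its own group. Orc4 ran from 139 to 404 and was highest on no LIF replicate 1. Orc3 read 351, 331 and 376 with LIF, 472, 555 and 424 without it, and 339, 293 and 479 with the donor. Its no LIF values were all above its LIF values. Orc1, the largest subunit and the member that cycles in many cells, ran from 325 to 528, and Orc5 from 641 to 1088. The narrow range of Orc1 holds for this probe set only. The other probe set of Orc1 ran from 76.0 to 926, with a correlation of 0.11 between them.

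Cdt1 and its inhibitor differed in the same manner, and Cdc6 shared its lowest arrays with the inhibitor. Cdt1 ran from 2620.4 to 4273 and Cdc6 from 448 to 804, a range of 1.63 and 1.8 from lowest to highest. Gmnn, which binds and blocks Cdt1, ran from 324 to 1059. The closest pair of arrays held the highest signals of Gmnn, and no LIF replicate 1 held the lowest of Cdt1. LIF replicate 1 and donor replicate 1 were the lowest arrays for Gmnn and also for Cdc6, and neither was the lowest for Cdt1. The lowest Cdt1 signal was close to that of LIF replicate 3, which was 2625.6.

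Firing genes were read next. Dbf4, the regulatory subunit of the Cdc7 kinase, read 478, 1529 and 996 with LIF, 1335, 833 and 888 without it, and 993, 1049 and 1251 with the donor. Cdc7 itself ran from 156 to 279. Mcm10, which helps the helicase to start unwinding, read 502, 691 and 729 with LIF, 587, 743 and 593 without it, and 479, 660.5 and 530.2 with the donor. The Mcm10 groups overlapped throughout. Cdc45, the helicase partner of MCM and GINS, ran from 142 to 327 and was highest on no LIF replicate 2. Of the GINS subunits, Gins1 read 85.5, 336 and 281 with LIF, 503, 186 and 176 without it, and 142, 203 and 523 with the donor. Gins2 read 179.8, 309 and 242 with LIF, 269.6, 407 and 353 without it, and 143, 146 and 263 with the donor. Thus Gins1 was highest on the closest pair of arrays, as Orc6 was, while Gins2 was highest on no LIF replicate 2. Gins4 ran from 203 to 502 and Gins3 from 44.7 to 102.

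**Figure D2:**
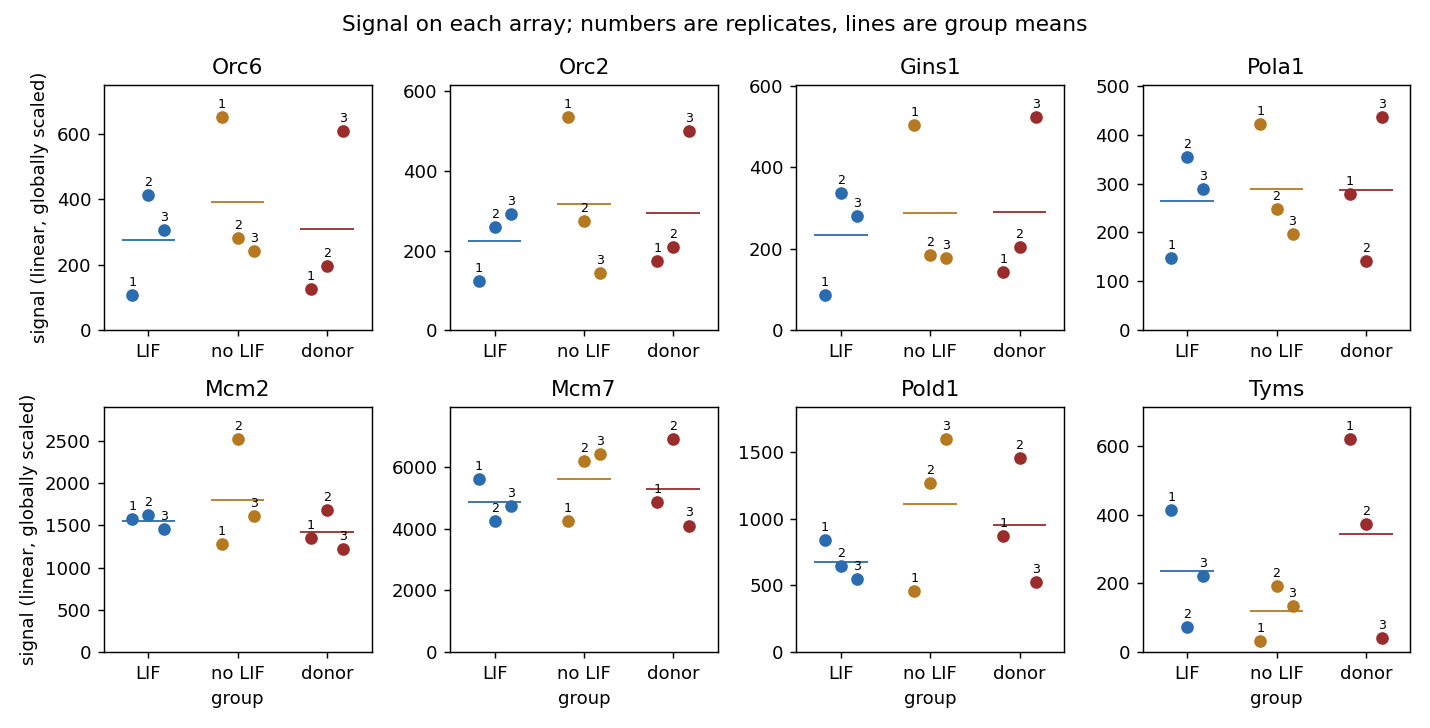
Each panel plots the linear signal of a gene on the 9 arrays by group (LIF, no LIF, donor); digits are replicates and lines are group means. Orc6, Orc2, Gins1 and Pola1 are highest on no LIF replicate 1 and donor replicate 3, while those arrays are the lowest for Mcm2, Pold1 and Tyms.

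Fork genes showed both kinds of profile. PCNA, the sliding clamp, read 2661, 3747 and 4331 with LIF, 5026, 4162 and 2979 without it, and 2268, 3257 and 4873 with the donor. Rpa1, the large RPA subunit, read 1959, 2472 and 3046 with LIF, 2635, 3946 and 3057 without it, and 1733, 4318 and 2814 with the donor. Pcna was highest on the closest pair of arrays, and Rpa1 on donor replicate 2. Rpa3, the small subunit, read 247, 413 and 559 with LIF, 547, 426 and 276 without it, and 163, 201 and 532 with the donor. Rpa2 lay between 273 and 605.

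Among the polymerases the catalytic subunits of alpha and delta ran against each other. Pola1, which with primase starts each strand, read 148, 355 and 288 with LIF, 422, 249 and 197 without it, and 279, 143 and 436 with the donor. Pold1, which extends the lagging strand, read 839, 647 and 545 with LIF, 457, 1267 and 1595 without it, and 872, 1451 and 529 with the donor. The closest pair of arrays held the highest signals of Pola1 and the lowest of Pold1. Pold2 ran from 630.4 to 2115 and, like Pold1, had its highest array in the no LIF group. Pole ran from 386 to 689.5, Pole2 from 171 to 357 and Pola2 from 207 to 344. Of the primase subunits, Prim1 ran from 342 to 1029.7. Prim2 read 152, 278 and 185 with LIF, 321, 347 and 232 without it, and 157, 231 and 284 with the donor.

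The clamp loader and the enzymes that finish lagging strands completed the fork list. Rfc3 read 286, 212 and 227 with LIF, 445, 249 and 169 without it, and 326, 253 and 424 with the donor. Rfc1 ran from 143 to 478, Rfc2 from 407 to 874, Rfc4 from 374 to 1079 and Rfc5 from 625 to 1261. Rfc5 was the only RFC gene whose no LIF values, 1202 to 1261, lay wholly above its LIF values, 794 to 1134. Lig1, the ligase that joins Okazaki fragments, read 706, 1206 and 1001 with LIF, 794, 1651 and 1788 without it, and 670.1, 969 and 859.6 with the donor. Fen1, the flap endonuclease, ran from 404 to 717.

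The nucleotide genes were Rrm1 and Rrm2, the subunits of ribonucleotide reductase, and Tyms, thymidylate synthase. Rrm1 read 313, 799.9 and 834 with LIF, 903, 1008 and 868 without it, and 464, 659.6 and 955 with the donor. Rrm2 read 1693, 1982 and 2483 with LIF, 2042, 3167 and 1717 without it, and 1066, 1928 and 1952 with the donor. Rrm1 without LIF lay above every LIF value, and Rrm2 overlapped. Another probe set of Rrm1 overlapped too, with 311 to 603 with LIF and 255 to 952 without it. Tyms read 415, 72.1 and 222 with LIF, 33.5, 192 and 135 without it, and 621, 374 and 40.6 with the donor. Its 18.5-fold range was the widest of the 46 genes, and it was lowest where Orc6 was highest. Of the 3 other probe sets of Tyms, 1 was tested, and it did not have its 2 lowest signals on the same arrays. Chaf1b, a subunit of the histone chaperone CAF-1, read 253, 429 and 347 with LIF, 427, 524 and 419.9 without it, and 292, 549.6 and 462 with the donor.

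The closest pair of arrays thus sorted the genes across roles. It held the 2 highest signals for 12 of the 46 genes: Orc2, Orc6 and Gmnn of licensing, Cdc7, Gins1 and Gins4 of firing, and Pcna, Rfc1, Rfc3, Pola1, Rpa2 and Fen1 of the fork. It held the 2 lowest for Mcm2, Pold1, Pole and Tyms. Over all tested genes the shares were 17.5% and 18.1%, beside 26.1% and 8.7% of the replication genes, so such profiles were common among all genes. Of 9 other tested probe sets of the 12 genes, 7 had their 2 highest signals on the same pair, and of 3 other probe sets of the 4 genes, 1 had its 2 lowest there.

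Likeness over the 9 arrays was described by the correlation of log2 signals. The genes share the arrays, with their scaling and brightness, so these values are descriptions only. Its median was 0.63 over the 15 pairs of MCM genes and -0.12 over the 15 pairs of ORC genes. Between ORC and MCM genes it was -0.04, from -0.79 to 0.89 over 36 pairs. Licensing pairs had a median of 0.24, fork pairs 0.36 and pairs of a licensing with a fork gene 0.33. The median within licensing genes was thus not above that between licensing and fork genes. The median SD of log2 signal over the 9 arrays was 0.41 for the replication genes and 0.55 for all tested genes. It was 0.33 for the MCM genes and 0.44 for the ORC genes.

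**Figure D3:**
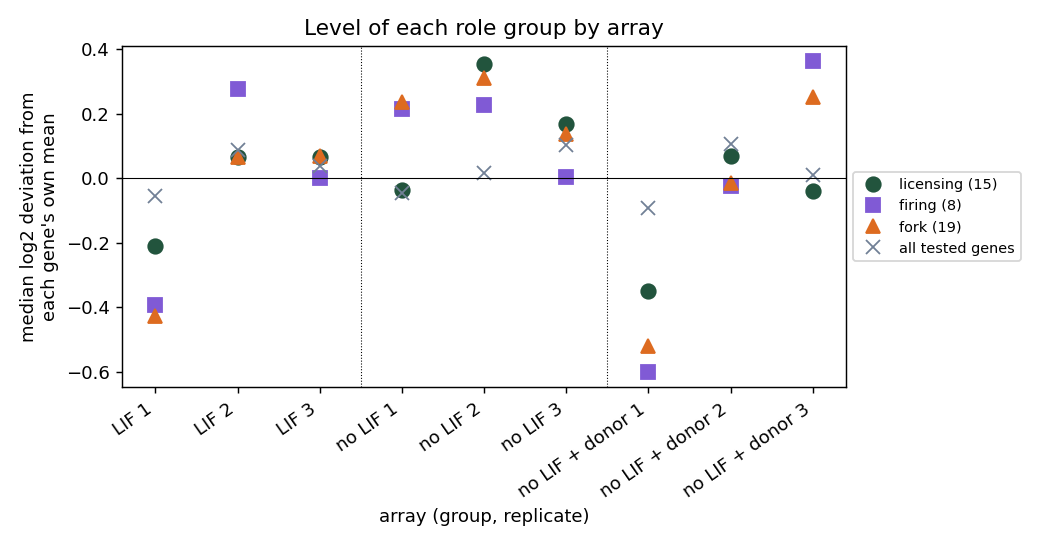
Points give, for each array, the median over the genes of a role (15 licensing, 8 firing, 19 fork) of log2 signal minus each gene's own mean over 9 arrays, with all tested genes beside them. The 3 role groups lie lowest on LIF replicate 1 and donor replicate 1, at -0.21 to -0.43 and -0.35 to -0.60.

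The first comparison asks how 7 days without LIF bear on these genes. Of the 46 genes, 42 lay higher without LIF, with a median log2 difference of 0.29 against 0.0056 over all tested genes, of which 50.4% lay higher and 49.6% lower. None passed the test: limma called 0 of 46 after Benjamini-Hochberg adjustment, as it called 0% of 29811 probe sets. At an unadjusted p under 0.05 limma also gave 0 of the 46, against 0.299% of genes higher and 0.809% lower. The median was 0.28 for licensing, 0.27 for firing and 0.35 for fork genes, so licensing and fork differed by -0.063. On single arrays, the median log2 signal of licensing minus that of fork genes had an SD of 0.32 between replicates. That SD is of levels and not of fitted differences, so it is only a rough measure beside them. The 4 genes below zero were Orc1, Gins3, Pola2 and Tyms.

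The members with the smallest p were Rrm1, Prim2, Orc3 and Gins2. The Rrm1 signal averaged 649 ± 291 on the LIF arrays and 926 ± 73 on the no LIF arrays (SD over 3 arrays, as for the means that follow). In limma its fitted difference was 0.64 (SE 0.43), adjusted p = 0.973. Prim2 averaged 205 ± 65.6 with LIF and 299.9 ± 60.4 without, a difference of 0.57 (SE 0.38). Orc3 averaged 353 ± 22.5 with LIF and 484 ± 66.2 without, a difference of 0.45 (SE 0.32). Gins2 averaged 244 ± 64.7 with LIF and 343 ± 69.4 without, a difference of 0.50 (SE 0.38). The adjusted p was 0.973 for each. They were higher in 3 of 3 passages. All other tested probe sets of Orc3 and Gins2 took the same sign, and 1 of 2 did so for Rrm1 and for Prim2. Group ranges were apart, with no LIF above, for 3 genes, Orc3, Rfc5 and Rrm1, or 6.52%, against 3.64% of all tested genes, and for 0 genes with no LIF below, against 3.67%. Higher in all 3 passages were 10 of 46, or 21.7%, against 8.27%. Lower in all 3 were Gins3 and Pola2, or 4.35%, against 8.51%.

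Passages and arrays bore on these medians. The median difference of the 46 genes was 0.50, 0.29 and 0.0098 at passages 31, 33 and 34. For the ORC genes it was 0.97, 0.12 and -0.19, and for the MCM genes -0.19, 0.59 and 0.24. The passage 31 pair sets LIF replicate 1, a brighter array, against no LIF replicate 1, of the closest pair. With brightness as a block, 31 of 46 lay higher and the licensing median was 0.14. Without LIF replicate 1 it was 31 of 46 too, and without no LIF replicate 2 the licensing median was 0.12. Without both replicate 2 arrays that went against their labels, 35 of 46 lay higher, and without the closest pair 34. After quantile normalization, 35 of 46 lay higher, or 76.1%, where 61.3% of all genes did. Reading each gene as the mean of its probe sets also gave 35.

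Markers of other cells were measured beside this comparison. All 10 markers of primitive and parietal endoderm lay lower without LIF, with a median of -0.98. Their summed signal was 5205 to 16717 with LIF, 2441 to 7354 without it and 2392 to 5265 with the donor. At passages 31, 33 and 34 the median difference of these 10 was -1.59, 0.29 and -1.73, so the sign turned at passage 33. The lowest signal of any of the 10 was 11.8, for Sox7, which is below the median of all probe sets on every array. The part of these 10 markers in the replication result was not tested. Of 4 neuroectoderm markers 3 lay lower without LIF, with a median of -0.48. By passage it was 0.59, -1.28 and -0.69. Of 6 mesendoderm markers 4 lay higher, with summed signals of 123 to 554 with LIF and 95.3 to 1148 without it. The mesendoderm median was 2.91, -1.58 and 0.096 by passage.

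**Figure D4:**
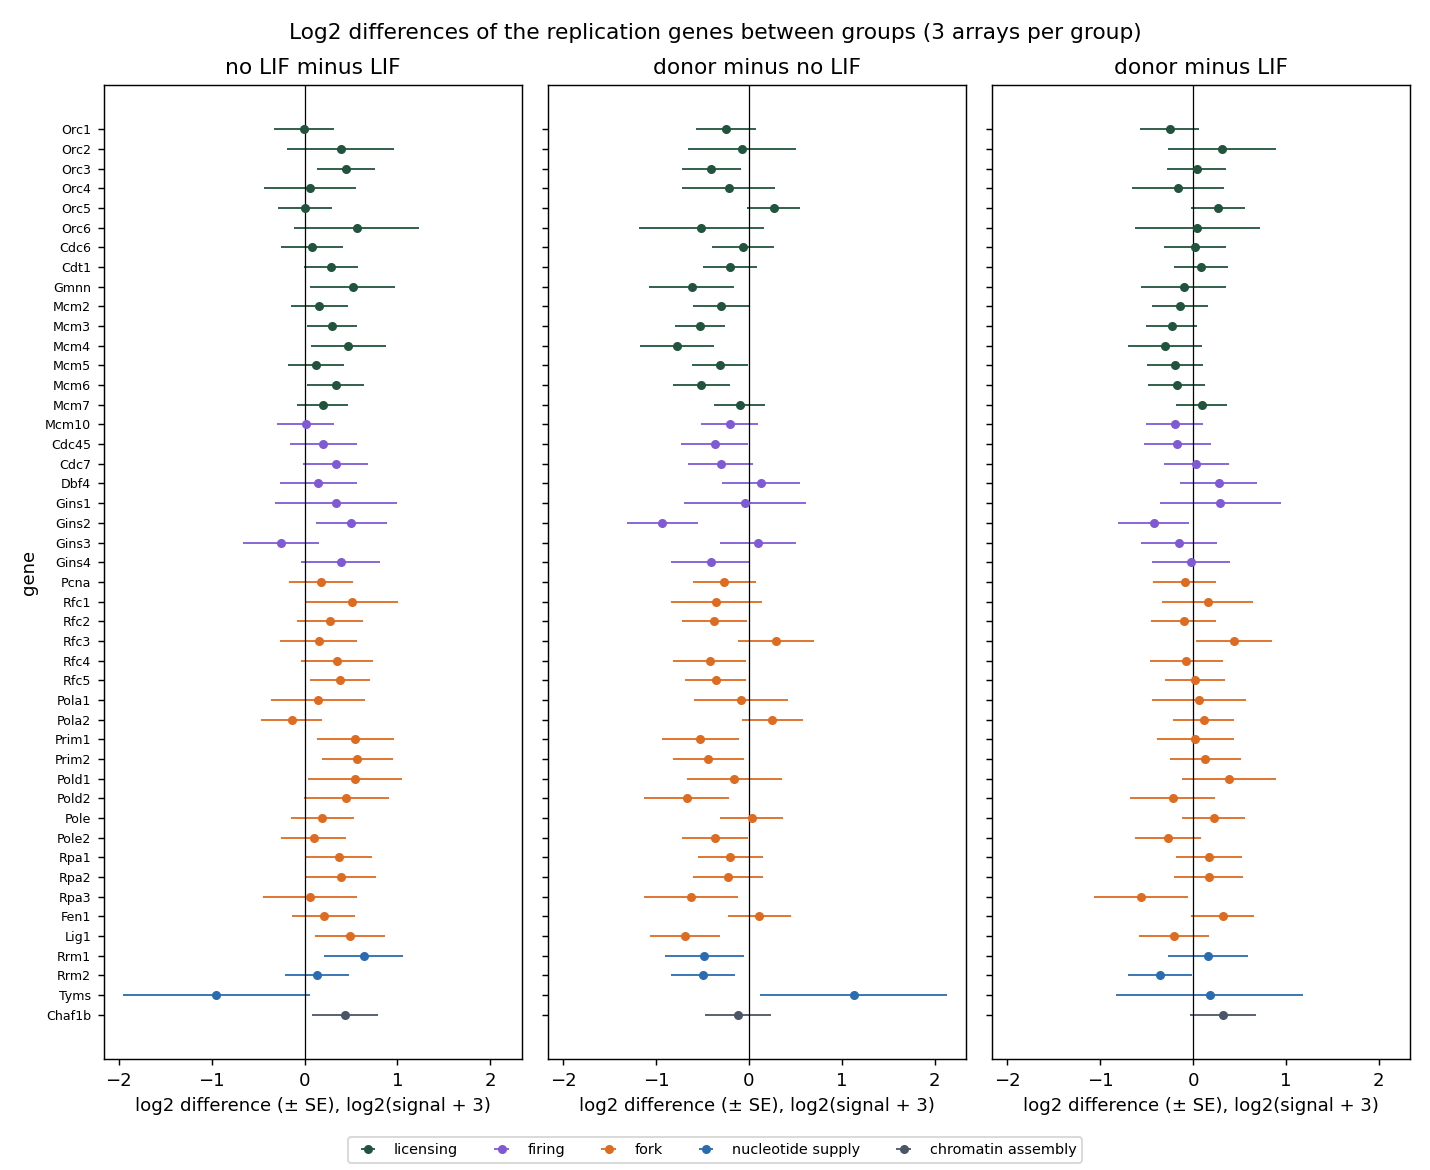
Points are log2 differences between group means for the 46 genes (rows, coloured by role) in the 3 comparisons, with bars of 1 SE, from a fit over 9 arrays with 3 per group. Most points lie right of zero in the first panel and left of it in the second, licensing and fork genes alike, and none passed the test.

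The next question is how the donor bears on these genes when LIF is absent. This comparison shares the no LIF arrays with the first, so their opposite signs are not independent. Of the 46 genes 38 lay lower with the donor, with a median of -0.30 against -0.025 over all tested genes, of which 52.4% lay lower. None passed the test, limma calling 0 of 46 and 0% of 29811 probe sets. At an unadjusted p under 0.05 limma gave 1 gene, Gins2, which was lower, or 2.17% against 0.846% of all tested genes. The median was -0.30 for licensing, -0.25 for firing and -0.35 for fork genes, and licensing minus fork was 0.055. All 6 MCM genes lay lower, with a median of -0.41. Above zero were Orc5, Dbf4, Gins3, Rfc3, Pola2, Pole, Fen1 and Tyms.

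The Gins2 signal averaged 343 ± 69.4 on the no LIF arrays and 184 ± 68.3 on the donor arrays. Its fitted difference was -0.93 (SE 0.38), with an unadjusted p of 0.0338 and an adjusted p of 0.929 in limma. Its groups did not overlap, and it was lower in 3 of 3 passages and in its other probe set. Mcm3 averaged 2466 ± 404 on the no LIF arrays and 1722 ± 344 on the donor arrays, a difference of -0.53 (SE 0.27), and its groups did not overlap either. Of its 4 other tested probe sets, 3 took that sign. These were the 2 genes with groups apart, or 4.35%, against 2.88% of all tested genes, and 0 had the donor above, against 3.78%. Mcm4 differed by -0.77 (SE 0.40) and Lig1 by -0.69 (SE 0.38), with overlapping groups. The adjusted p was 0.929 for these 3 as well.

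Lower in 3 of 3 passages were 9 of 46 genes, or 19.6%, against 10.3% of all tested genes. Higher in 3 of 3 was Orc5, or 2.17%, against 9.35%. Those lower were Orc1, Mcm3 and Mcm6 of licensing, Mcm10, Cdc45 and Gins2 of firing, and Rfc2, Rfc5 and Lig1 of the fork. The median of the 46 was -0.61, -0.39 and 0.18 at passages 31, 33 and 34. Fork genes stood at -0.72, -0.35 and 0.22 there, ORC genes at -0.89, -0.43 and 0.65, and MCM genes at -0.15, -0.60 and -0.52. Donor replicate 3, of the closest pair, makes up the last passage, and the MCM genes kept their sign in it while the other 2 sets did not.

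Brightness, as the median of all probe sets, moved with this result. Donor replicates 1 and 2 are brighter arrays and no array of the no LIF group is. With brightness as a block 24 of 46 genes lay higher, the median of all 46 was 0.014 and that of fork genes 0.055. Donor replicate 3 is the only donor array among the other 6. Without donor replicate 1, 15 of 46 lay higher. With each array centred on its median, 4 of 46 lay higher, against 30.4% of all genes. That centring moved the median difference of all genes from -0.025 to -0.25 here and from 0.0056 to 0.23 in the first comparison. Without both replicate 2 arrays that went against their labels, 10 lay higher, and without the closest pair 7. The fitted differences of the 6 mesendoderm markers were all above zero with the donor, and those of 5 of 10 endoderm markers were. The summed mesendoderm signals overlapped, at 326 to 1128 with the donor and 95.3 to 1148 without it. At passages 31, 33 and 34 the mesendoderm median was -2.57, 2.21 and 2.47. All 4 neuroectoderm markers lay higher too, with a median of 0.71 and summed signals of 139 to 185, against 55.5 to 151 without the donor. By passage their median was -0.35, 1.50 and 1.25. All 6 stem cell markers lay lower with the donor, with a median of -0.28 and summed signals of 6285 to 8672, against 8446 to 12177 without it. By passage their median was -0.037, -1.04 and 0.17, so its size came mainly from passage 33. The sum of 12177 is that of no LIF replicate 2, which went against its label. The part of these markers in the result was not tested.

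The third comparison sets the donor group against LIF. It shares arrays with both others. Here 25 of 46 genes lay higher with the donor, a share of 54.3% against 49.1% of all tested genes, with a median of 0.022. Lower were 21, or 45.7%, against 50.9%. Limma called 0 of 46 and 0% of 29811 probe sets. At an unadjusted p under 0.05 it gave 0 of 46, against 0.816% of genes higher and 0.936% lower. Higher in 3 of 3 passages were Orc5, Rfc3 and Chaf1b, or 6.52%, against 10.4%, and lower were 6, or 13%, against 11.6%. The median was -0.10 for licensing and 0.067 for fork genes. No gene had groups apart, against 2.68% of all tested genes higher and 3.57% lower. The smallest p values belonged to Rpa3 at -0.56 (SE 0.51), Gins2 at -0.43 (SE 0.38), Rfc3 at 0.45 (SE 0.41) and Rrm2 at -0.35 (SE 0.34), with a limma adjusted p of 1 for each. The count of 25 rests on LIF replicate 1 and donor replicate 3. Without LIF replicate 1 it was 13, and without donor replicate 3 it was 13. Without the closest pair it was 13 too, but of that pair only donor replicate 3 enters this comparison. Without no LIF replicate 1 alone it stayed at 25. Without both replicate 2 arrays that went against their labels it was 26.

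Other genes of the pathway were read from a list of 51, of which 48 have a probe set. They include fork protection and checkpoint genes, histone and methylation maintenance genes and S phase cyclins. Of these 48, 0 passed the limma test in either direction in each comparison, against 0% of 29811 probe sets. At an unadjusted limma p under 0.05 there were 0 too, against 0.299% to 1.48% of all tested genes per direction and comparison. Without LIF 37 lay higher, with a median of 0.21, where 50.4% of all tested genes lay higher. With the donor 39 lay lower than without it, with a median of -0.22, where 52.4% of all tested genes lay lower. At passages 31, 33 and 34 these medians were 0.69, 0.026 and -0.014 for the first comparison and -0.74, -0.18 and 0.29 for the second, so their size came mainly from passage 31 and the sign turned at passage 34. The smallest p values were those of Pold3, a polymerase delta subunit, and Top2a, a topoisomerase, in the first comparison, at 0.67 (SE 0.42) and 0.48 (SE 0.31). In the second they were those of Pold4, a further delta subunit, at -0.88 (SE 0.43), and Tk1, thymidine kinase, at -0.60 (SE 0.34). Pold4 read 31.4, 39.4 and 38.1 with the donor, 42.3, 87.3 and 89.1 without it, and 43.2, 85.9 and 87.5 with LIF. Its donor values were the lowest 3 of the 9. Of all tested genes 2.88% had donor values wholly below those without LIF, and 3.57% wholly below those with LIF.

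The factors that control transcription of these genes, the E2F family with its DP partners, the pocket proteins, Lin54 and Mybl2, had all 15 members measured. Of these, 8 lay higher without LIF than with it and 5 higher with the donor than without, with medians of 0.032 and -0.083. Over all tested genes 50.4% and 47.6% lay higher. Limma called 0 of 15, and 0 of 15 had an unadjusted p under 0.05, in each comparison, beside the shares of all tested genes given above. E2f1, an activator, read 132, 131.7 and 148 with LIF, 77.5, 211 and 167 without it, and 89.5, 126 and 74.8 with the donor. E2f3, another activator, read 70.8, 166 and 106 with LIF, 193, 45.8 and 76.4 without it, and 122, 147 and 234 with the donor. E2f1 was lowest on the closest pair of arrays and E2f3 highest there.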

How the data were processed

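Expression was measured on 9 arrays, 3 per group. The deposited values are linear signal intensities of 45101 probe sets; they were scaled globally in GeneChip Operating System 1.4.0.036, per the labels, and MAS5 is listed in the submitters' processing notes. Values were turned to log2(signal + 3), 3 being the rounded 20th percentile of the table. The 64 control probe sets were left out, and 29811 probe sets were tested, those that on 3 or more arrays reached the array's 40th percentile. No detection calls were used. The platform annotation gives 1 symbol for 34945 probe sets, several for 932 and none for 9160.

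A single limma fit (version 3.58.1, R 4.3.3) of the 9 arrays gave every comparison, from a model of group alone, moderated by eBayes with a trend on intensity and tested two-sided, with Benjamini-Hochberg adjustment over all tested probe sets at 0.05. The fit was checked on simulated data. Medians over lists and shares of all genes are descriptions over 13358 genes, each read from its brightest probe set. The members and lists were chosen with earlier results of these data known. Values on every array are given for the 2 brightest members of each role and the 4 with the smallest p in each comparison. Orc2, Orc6, Gins1, Mcm2, Pola1, Pold1 and Tyms were added after their values were seen, as were named genes of groups apart. Probe sets ending in _s_at or _x_at (Mcm3, Mcm5, Mcm7, Gins2, Pold1, Fen1 and Rrm2 are read from such) can bind related transcripts.

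Replicate numbers stand for passages, per the titles. Most same-numbered arrays did not deviate together from their group means: the correlations ran from -0.6 to 0.65, and 3 of 9 were over 0.1. The value of 0.65 is that of LIF replicate 1 with donor replicate 1, the arrays with the lowest summed signal. Alternatives covered the pseudocount, the filter, the scaling, a fit without the trend, a fit of only the groups compared, the replicate block, brightness as a block, the choice of probe set and left-out arrays.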

Additional observations from a re-analysis of the deposited data

How the results depend on the processing

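Under all 22 alternatives limma called 0 members and 0 probe sets in each comparison (at an unadjusted p under 0.05, 459, 1498 and 578 probe sets in the 3 comparisons as reported), and each log2 difference of a named member kept its sign. The replicate block also called 0, with 493, 1602 and 471 at an unadjusted p under 0.05, and left every median and the 42, 8 and 25 members lying higher in the 3 comparisons as they were. Counts of members lying higher were added after the data were seen. Without LIF, the median of licensing members was 0.093 after quantile normalization, 0.50 with median centring and 0.14 with the brightness block, and 0.12 to 0.38 with 1 array left out. For donor against no LIF, 4 members lay higher with median centring, 24 with the brightness block and 13 as the mean over probe sets, and 8 to 15 with 1 array left out. The licensing median was -0.53 with median centring and -0.46 to -0.15 with 1 array left out, and the brightness block gave medians of 0.014 over all members and 0.055 for fork members. For donor against LIF, the licensing median was 0.055 with the brightness block and -0.15 to 0.088 with 1 array left out. There 13 lay higher without the closest pair, and 13 to 32 with 1 array left out. The cause was not tested. The spread between arrays, with 3 per group, limits the precision: the median SE of a member's log2 difference was 0.37.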
